A study of Mus musculus with 6 samples.

Results

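Box C/D small nucleolar RNAs were followed in the lungs of 6 mice through 47 genes whose symbols start with Snord. Each had a single probe set annotated to that symbol alone, so the 47 genes are 47 probe sets, out of 22180 genes measured under a single symbol. Box C/D RNAs are short nuclear RNAs that carry conserved sequence elements called box C and box D. They are held in a particle with the proteins fibrillarin, Nop56, Nop58 and Snu13. Most of them base-pair with ribosomal RNA and direct ribose methylation at the paired site, while a few, among them U8 (Snord118) and U3, are needed for the cuts that release mature ribosomal RNAs from their precursor. In mammals most box C/D RNAs are trimmed out of introns of host genes, many of which encode ribosomal proteins or translation factors, and a few are transcribed from promoters of their own.

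All animals were CD1 mice, an outbred strain, 10 weeks old. The intact group had 3 mice given a sham procedure. The preconditioned group had 3 mice mechanically ventilated at low pressure for 90 minutes, with lung tissue sampled 1 week later. Total RNA of each lung (100 ng) was amplified, labelled with biotin and read on 1 array per mouse. The labels call the mice of a group biological replicates. With 3 arrays in each group, the precision of all values given here is low. Values are on the log2 scale after RMA, which sets all arrays to a common distribution, so a value of 1 more is a doubling of signal. Levels of different probe sets are not amounts that can be set against each other, and differences are therefore given within a gene, preconditioned minus intact.

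Medians over all genes lay between 5.92 and 5.96 on the 6 arrays. Upper quartiles lay between 7.40 and 7.49 on the intact arrays and between 7.35 and 7.36 on the preconditioned arrays. The lung markers Sftpc (surfactant protein C) and Scgb1a1 (club cell secretory protein) lay between 12.95 and 13.60 on every array. All 6 lung markers were lower in preconditioned lungs (median -0.33), with the surfactant gene Sftpb at -0.49 and the macrophage gene Chil3 at -1.25 apart between the groups and the alveolar type 1 gene Ager at -0.42 overlapping. Markers of other cells were lower too. All 6 neutrophil markers were lower in preconditioned lungs, with mean deviations from the gene averages of -0.32, 0.48 and 1.77 in intact mice and -0.64, -0.78 and -0.51 in preconditioned mice. All 5 monocyte markers were lower (median -0.57), as were all 5 mesothelial markers (median -0.77) and all 4 markers of T and NK cells (median -0.84). Heart muscle markers varied from mouse to mouse, with mean deviations of -2.08, 1.55 and -0.33 in preconditioned replicates 1, 2 and 3. Groups were apart and lower for 5 of 6 neutrophil, 4 of 5 monocyte and all 5 mesothelial markers. The same held for all 4 T and NK markers, 2 of 6 lung markers and 0 of 5 heart muscle markers. Over all genes 13.0% were apart and lower. None of these lists, lung, neutrophil, monocyte, mesothelial, T and NK and heart muscle, had a member at an adjusted p under 0.05 in limma. A change in the makeup of cells and a change of RNA per cell cannot be told apart in whole lung tissue, and the part of these markers in the results on Snord genes was not tested.

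Box C/D RNAs were mostly higher in preconditioned lungs. Of the 47 Snord genes, 38 had a difference above 0, against 52.7% of all genes, and the median difference was 0.39 against 0.01 over all 22180 genes. For 24 Snord genes every preconditioned mouse lay above every intact mouse (51.1%, against a background of 11.7% of all genes). For 0 of the 47 did every preconditioned mouse lie below every intact mouse (background 13.0%). In limma, fitted over all genes with Benjamini-Hochberg adjustment, 2 Snord genes rose at an adjusted p under 0.05, Snord118 and Snord65, against a background of 0.0361% of all genes called higher (0.0947% in either direction). No Snord gene fell (background 0.0586%), and at an unadjusted p under 0.05 there were 25 Snord genes higher (background 7.53%) and 0 lower (background 11.6%).

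The count of 2 depended on single mice. Without intact replicate 1 it was 17 higher and 2 lower, where 1.22% of all genes were called higher and 4.31% lower (1228 genes in all, against 21 with every mouse). The count was 1, Snord118, when intact replicate 2 or 3 or any preconditioned replicate (1, 2 or 3) was left out. The 2 genes called lower without intact replicate 1 were Snord111 at -0.86 (limma adjusted p = 0.0334) and Snord19 at -0.55 (adjusted p = 0.0272). The median difference lay between 0.29 and 0.45 when any 1 mouse was left out.

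**Figure D1:**
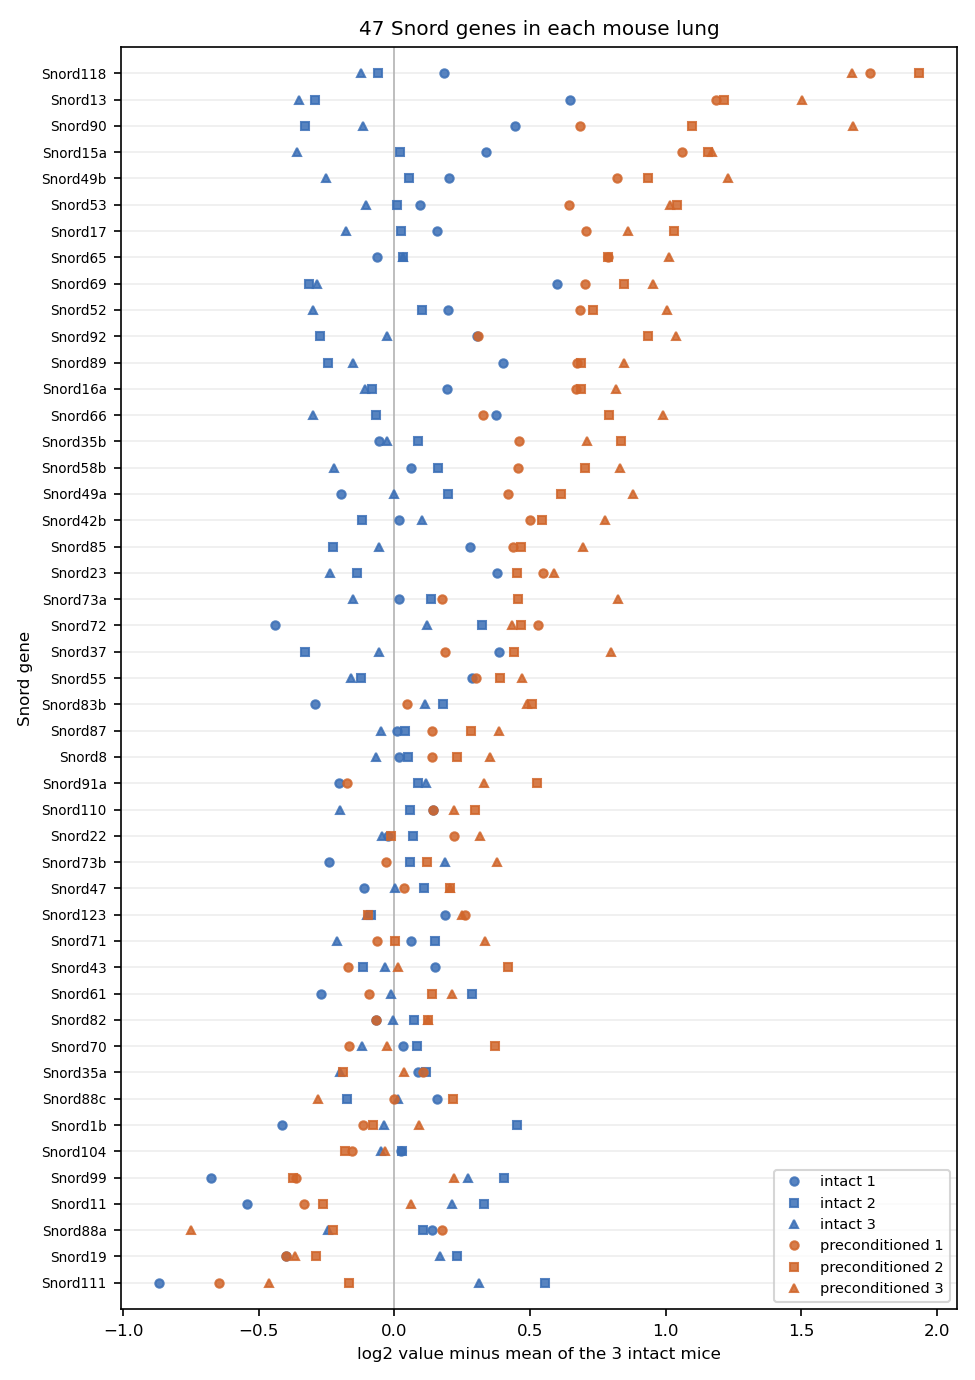
Values of the 47 Snord genes in each mouse (x axis, log2 value minus the mean of the 3 intact mice; y axis, genes ordered by difference; blue, intact; orange, preconditioned; symbols, replicates 1 to 3). The orange points lie right of all blue points for 24 genes, and Snord118 at the top stands at 1.79 on average.

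The mice did not share the pattern equally. Averaged over the 47 genes, the deviation from each gene's mean was -0.17, -0.18 and -0.28 in intact replicates 1, 2 and 3 and 0.08, 0.23 and 0.32 in preconditioned replicates 1, 2 and 3. Preconditioned replicate 3 had the highest of the 6 values for 25 genes and intact replicate 3 the lowest for 20. Preconditioned replicate 1 was the lowest of its group for 36 of the 47 genes, so over these genes it lay nearest to the intact mice. Among the 24 genes whose groups did not overlap, intact replicate 1 was the highest intact mouse for 15.

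The first group by role is that of RNAs needed for processing of ribosomal RNA rather than for its methylation. Snord118 (probe set 17251514), or U8, takes part in the maturation of the large-subunit ribosomal RNAs. It stood at 5.95, 5.71 and 5.65 in intact mice and at 7.52, 7.71 and 7.46 in preconditioned mice. The lowest preconditioned value was far above the highest intact value. Snord118 rose by 1.79 on the log2 scale (SE 0.12, 3.46-fold, limma adjusted p = 0.00289), from 5.77 ± 0.16 to 7.56 ± 0.13 (SD, n = 3). It passed in each of the 16 alternative settings, with differences from 1.72 to 1.88 and adjusted p from 0.000828 to 0.0383.

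Snord13, or U13, is an RNA of small-subunit ribosomal RNA maturation. Its values were 10.35, 9.41 and 9.35 in intact mice and 10.89, 10.92 and 11.21 in preconditioned mice. The groups did not overlap, but intact replicate 1 lay nearly a full log2 unit above the other intact mice. The difference was 1.30 (SE 0.25, limma adjusted p = 0.0860), and it was 1.63 without intact replicate 1 (adjusted p = 0.0100), 1.15 without intact replicate 2 (0.277) and 1.13 without intact replicate 3 (0.299). Snord22, or U22, also acts in small-subunit maturation and behaved differently. It read 12.24, 12.33 and 12.22 in intact and 12.49, 12.25 and 12.58 in preconditioned mice, so that the groups overlapped, with a difference of 0.17 (95% confidence interval -0.07 to 0.42). U3, the RNA of the processing complex that assembles on the nascent precursor, has a symbol outside the Snord series. Its gene Rnu3a was at 8.16, 7.08 and 7.32 in intact and 8.99, 9.55 and 9.66 in preconditioned mice (difference 1.88, SE 0.28, limma adjusted p = 0.0556).

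The other Snord genes are mostly methylation guides, and Snord65, a guide for small-subunit ribosomal RNA, was the gene among them that passed. Snord65 (probe set 17250744) read 8.89, 8.99 and 8.99 in intact mice and 9.75, 9.75 and 9.97 in preconditioned mice. The values within each group lay close together and the groups were well apart. Snord65 rose by 0.86 (SE 0.10, 1.82-fold, limma adjusted p = 0.0399). That call held without intact replicate 1 (0.0145) and was lost when intact replicate 2 (0.204) or 3 (0.187) or preconditioned replicate 1 (0.0669), 2 (0.113) or 3 (0.1995) was left out, with differences between 0.79 and 0.90.

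Snord53 and Snord17 were close to the threshold. Snord53 was at 6.64, 6.55 and 6.44 in intact and 7.19, 7.59 and 7.56 in preconditioned mice, a difference of 0.90 (SE 0.13). Snord17, the longest of the 47 at 221 nucleotides, was at 10.35, 10.22 and 10.01 in intact and 10.90, 11.22 and 11.05 in preconditioned mice, a difference of 0.87 (SE 0.12). Neither gene's groups overlapped, and both had a limma adjusted p of 0.0556. Without intact replicate 1 the adjusted p was 0.0198 for Snord53 and 0.0161 for Snord17. Without any other mouse it lay between 0.0634 and 0.238 for Snord53 and between 0.0741 and 0.219 for Snord17.

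**Figure D2:**
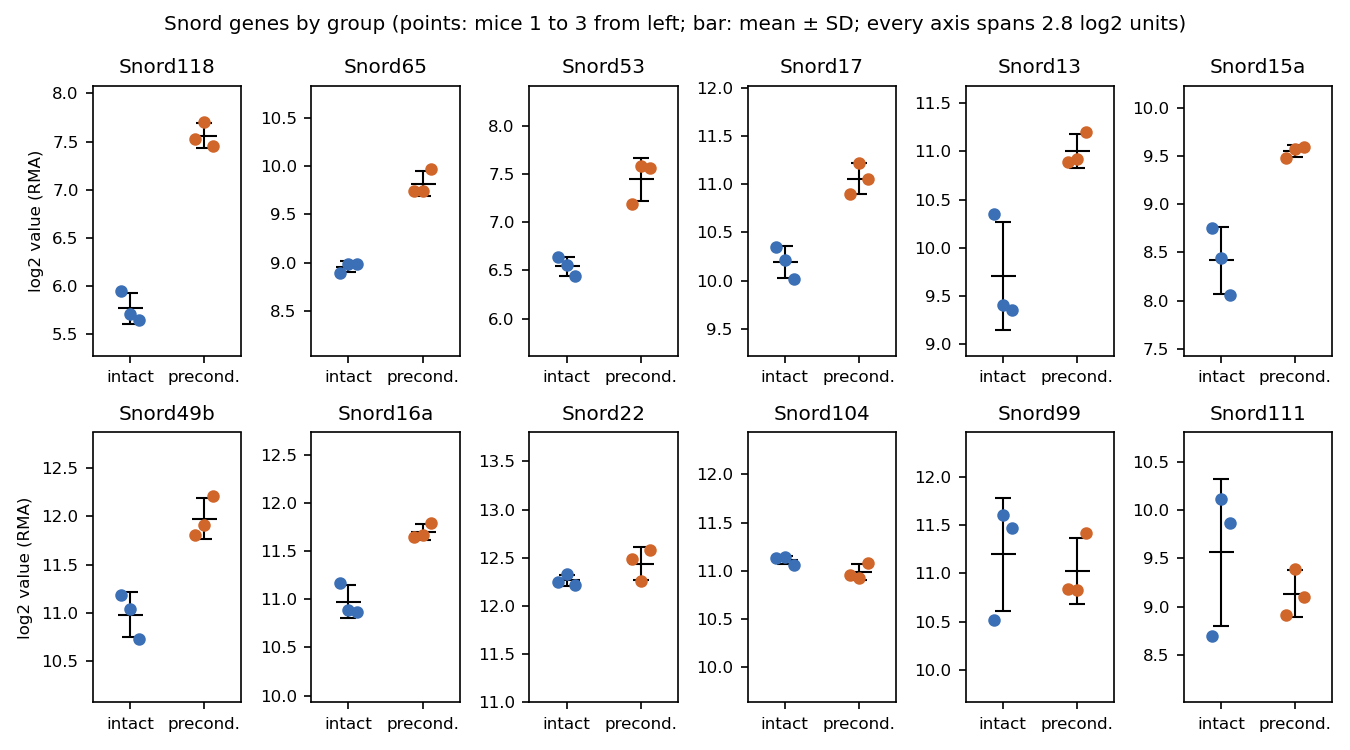
Log2 values of 12 Snord genes in intact (blue) and preconditioned (orange) lungs (points, mice 1 to 3 from left; bars, mean ± SD, n = 3; each y axis spans the same range of log2 units). The groups are apart for the first 8 genes from Snord118 to Snord16a and overlap for Snord22, Snord104, Snord99 and Snord111.

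A further 3 guides had the same adjusted p of 0.0556. Snord15a, a guide for large-subunit ribosomal RNA, was at 8.76, 8.44 and 8.06 in intact and 9.48, 9.58 and 9.59 in preconditioned mice (difference 1.13, SE 0.16). Snord49b was at 11.18, 11.04 and 10.73 in intact and 11.80, 11.92 and 12.21 in preconditioned mice (difference 0.99, SE 0.15). Snord16a, a guide for small-subunit ribosomal RNA, was at 11.17, 10.89 and 10.87 in intact and 11.64, 11.66 and 11.79 in preconditioned mice (difference 0.73, SE 0.11). In each of the 3 the lowest preconditioned mouse lay above the highest intact mouse, and in each the highest intact mouse was replicate 1.

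Of the next genes by size of difference, Snord69 was at 9.12, 8.21 and 8.23 in intact and 9.22, 9.37 and 9.47 in preconditioned mice (difference 0.83, SE 0.23). Intact replicate 1 stood just below the lowest preconditioned mouse there (9.12 and 9.22), far above the other intact mice. Snord52 was at 5.43, 5.33 and 4.93 in intact and 5.91, 5.96 and 6.23 in preconditioned mice (difference 0.81, SE 0.15). Snord89 was at 9.07, 8.42 and 8.51 in intact and 9.34, 9.36 and 9.52 in preconditioned mice (difference 0.74, SE 0.17). Snord66 was at 9.49, 9.05 and 8.82 in intact and 9.44, 9.91 and 10.11 in preconditioned mice (difference 0.70, SE 0.21), and its groups overlapped because intact replicate 1 exceeded preconditioned replicate 1. The limma adjusted p of these 4 genes lay between 0.0812 and 0.143. In all, 15 of the 47 had an adjusted p under 0.1, all of them higher, against a background of 0.807% of all genes higher at that threshold.

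Several guides showed no such separation. Among the probe sets with the highest mean values, Snord82 was at 11.90, 12.04 and 11.96 in intact and 11.90, 12.09 and 12.09 in preconditioned mice (difference 0.06, 95% confidence interval -0.16 to 0.28). Snord110 had a difference of 0.22 (interval -0.04 to 0.48). For both the groups overlapped. The groups were apart for the other 2 of this kind, Snord55 at 0.39 (interval 0.08 to 0.69) and Snord87 at 0.27 (interval 0.05 to 0.49), neither of which passed (limma adjusted p = 0.181 for Snord55). Snord35a, a guide for large-subunit ribosomal RNA, was at 10.56, 10.59 and 10.27 in intact and 10.57, 10.28 and 10.50 in preconditioned mice, a difference of -0.02 (interval -0.30 to 0.27). Snord70 was at 0.06, Snord88c at -0.02 and Snord1b at -0.03, with overlapping groups.

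Among the named genes with the lowest differences, 3 had intact mice that were spread widely. Snord111 was at 8.70, 10.12 and 9.87 in intact and 8.91, 9.40 and 9.10 in preconditioned mice, a difference of -0.43 (interval -1.19 to 0.34). Snord99 was at 10.52, 11.60 and 11.47 in intact and 10.84, 10.83 and 11.42 in preconditioned mice (difference -0.17). Snord11 was at 8.66, 9.53 and 9.42 in intact and 8.87, 8.94 and 9.27 in preconditioned mice (difference -0.18). In each of these 3 intact replicate 1 was the lowest of the 6 mice, opposite to its place among the genes that stood higher in preconditioned lungs. Snord104 varied little, at 11.14, 11.14 and 11.06 in intact and 10.96, 10.93 and 11.08 in preconditioned mice (difference -0.13, interval -0.33 to 0.08). The signs of Snord99, Snord104, Snord1b, Snord88c, Snord35a and Snord70 turned in at least 1 alternative setting, with ranges of -0.51 to 0.03, -0.17 to 0.07, -0.24 to 0.19, -0.14 to 0.11, -0.12 to 0.17 and -0.10 to 0.21.

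The remaining genes had differences between -0.35 (Snord19) and 1.16 (Snord90). Snord90 was at 4.82, 4.04 and 4.26 in intact and 5.06, 5.47 and 6.07 in preconditioned mice, in the lower range of signal on the array. The highest group mean lay at or under 5.95, the median level of all genes, for 7 of the 47 (median difference 0.48), and above it for 40 (median difference 0.37). This split is not independent of the difference. Snord118 (5.77 intact, 7.56 preconditioned), Snord52 (5.23 and 6.04) and Snord43 (5.92 and 6.00) exceeded that level only in their preconditioned mean. Over all genes the median difference was 0.06 below a mean level of 4 and 0.09 between 4 and 5. It fell with each higher range of level. The medians of Snord genes lay above 0 in every range that held any. Among the 1205 genes with a mean above 9, the median was -0.16, while the 26 Snord genes among them had a median of 0.25. For genes between 8 and 9 the median was -0.14, and the 9 Snord genes there had a median of 0.48.

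Length of the RNA, taken from the RefSeq gene table of GRCm38.p6, ran from 48 to 221 nucleotides with a median of 68. The 26 genes of up to 70 nucleotides had a median difference of 0.48, the 17 of more than 70 and up to 100 nucleotides had 0.27, and the 4 longer ones, Snord118, Snord17, Snord15a and Snord22, had 1.00. Across the 47 genes Pearson's r between length and difference was 0.37 and Spearman's rho 0.22, as a description of genes that share the same 6 arrays.

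Most box C/D RNAs lie in introns, and the coordinates of 44 of the 47 lay inside the span of another gene in the same RefSeq table. The table gives no strand, so an enclosing gene is a candidate host. The 3 outside any span, Snord118, Snord13 and Snord89, had differences of 1.79, 1.30 and 0.74. The 44 enclosed genes had a median of 0.31 and ran from -0.43 to 1.16, with 21 of them apart and higher (background 11.7% of all genes). Of the 44, 36 had an enclosing gene that was measured, which gave 37 pairs and 29 enclosing genes. The enclosing genes had a median difference of 0.04, with 16 of 29 above 0, and none passed the threshold in limma. At an unadjusted p under 0.05, 2 were higher and 3 lower (6.9% and 10.3%, near the backgrounds of 7.53% and 11.6%). The Snord gene had the larger difference in 30 of the 37 pairs. Of the 29 enclosing genes, 25 had a group mean above 5.95, the median level of all genes. Rpl17 and Mcmdc2 read low, at mean levels of 4.11 and 3.68, and whether their probe sets read the host was not tested.

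Ribosomal protein genes are frequent hosts. Snord15a, at 1.13, lies in Rps3, which was at 0.11 (SE 0.09), and Snord16a, at 0.73, lies in Rpl4, at -0.17 (SE 0.12). Snord42b, at 0.61, lies in Rpl23a, at 0.03 (SE 0.10). In these pairs the values of the enclosing gene overlapped between the groups while the small RNA was apart. The probe set read for Rpl23a (17243456) is numbered far from that of Snord42b (17266372). The same holds for the probe sets of Rpl3 and Rps3a1 and the Snord genes they enclose. Whether these probe sets read the host at that place was not tested. Snord90 (1.16) and its enclosing gene Rc3h2 (-0.23) were apart in opposite directions. Of the 19 pairs in which the Snord gene was apart and higher, the enclosing gene was apart and higher in 1, Nop53 with Snord23, and apart and lower in 1, Rc3h2.

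**Figure D3:**
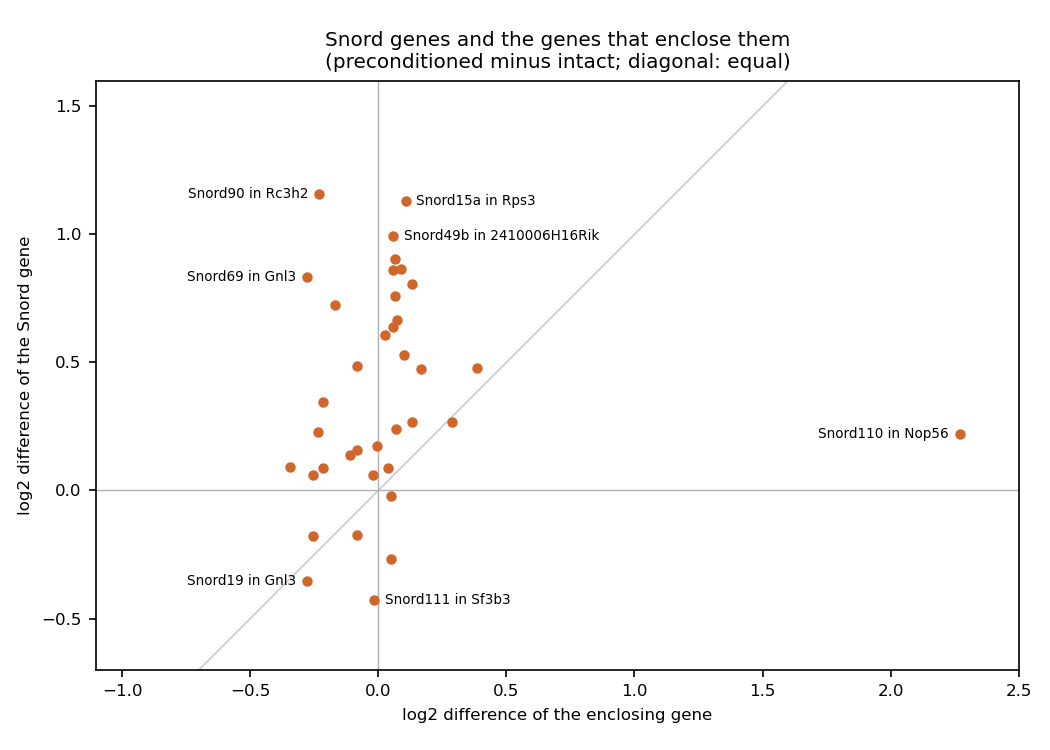
Log2 difference of each Snord gene (y axis) against that of the gene enclosing it (x axis), preconditioned minus intact, for 37 pairs (points; the diagonal marks equal differences). The points spread from -0.43 to 1.16 on the y axis, whereas all but Nop56 lie between -0.34 and 0.39 on the x axis.

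Where several Snord genes share an enclosing gene, they are not independent of each other. The noncoding RNA gene 2410006H16Rik encloses Snord49b, Snord65 and Snord49a, at 0.99, 0.86 and 0.64, and was itself at 0.06 (SE 0.16). Wdr43, a factor of small-subunit assembly, encloses Snord53 and Snord92, at 0.90 and 0.76, and was at 0.06 (SE 0.09). Within both of these genes the small RNAs lay on the same side. Gnl3, a nucleolar GTPase gene, encloses Snord69 at 0.83 and Snord19 at -0.35, which stood on opposite sides, and was at -0.28 (SE 0.11). Nop58 encloses Snord70 and Snord11 (0.06 and -0.18), Rpl3 encloses Snord83b and Snord43 (0.35 and 0.09), and Rps3a1 encloses Snord73a and Snord73b (0.49 and 0.16). In 2410002F23Rik both enclosed genes, Snord88c and Snord88a, lay below 0 (-0.02 and -0.27).

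Genes that make and carry box C/D RNAs had differences centred near 0. A list of 50 genes covered the core proteins, assembly factors, capping, transport and trimming, release from introns and the U3 particle with its RNA, Rnu3a. Of the list, 42 were measured under a single symbol. The core protein gene of fibrillarin (Fbl) was not, nor were Hsp90ab1, Phax, Zfp593 and Rnu3b1 to Rnu3b4. Of the 42 measured, 19 were above 0 and 23 below, with a median of -0.05, and none passed an adjusted p of 0.05 in limma. At an unadjusted p under 0.05, 3 were higher and 4 lower (7.14% and 9.52%, near the backgrounds of 7.53% and 11.6%). Groups were apart and higher for 7 and apart and lower for 7 (16.7%, against backgrounds of 11.7% and 13.0%).

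The 4 with the largest moderated t were Nop56, Rnu3a, Imp3 and Exosc10. The core protein gene Nop56 was at 8.78, 7.52 and 7.37 in intact and 9.74, 10.52 and 10.22 in preconditioned mice (difference 2.27, SE 0.36, limma adjusted p = 0.0610). Its other probe sets with that symbol alone gave -0.09 and 0.73, so the difference depended on the probe set. The probe set used, 17376272, is numbered between that of Snord110 (17376270) and that of Snord57 and Nop56 (17376276). Whether it reads the messenger RNA or a small RNA inside the gene was not tested. Imp3, a protein of the U3 particle, was at 0.31 (SE 0.11) and Exosc10, the nuclear exosome exonuclease that trims the ends of small nucleolar RNAs, was at -0.23 (SE 0.09). The core protein genes Nop58 and Snu13 were at -0.25 (SE 0.11) and -0.22 (SE 0.10). Without intact replicate 1, Rnu3a at 2.20 and Nop56, by probe set 17376272, at 2.71 were higher in limma (adjusted p = 0.0109 and 0.0100). Lsm2, an RNA-binding protein gene, at -0.73 was lower (adjusted p = 0.0146).

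Other classes of small noncoding RNA also had medians above that of all genes. Box H/ACA RNAs, which guide pseudouridylation, had a median of 0.68 over 26 genes, with 22 above 0. Groups were apart and higher for 18 of them (69.2%, against a background of 11.7% of all genes). The 5 Cajal body RNAs had a median of 0.57, the 3 spliceosomal RNAs 0.33, and 8 other small RNAs, among them Rpph1 of ribonuclease P at 0.76, had 0.46 with all 8 above 0. For genes of microRNA precursors the median was 0.04 over 483 genes, with 281 above 0 and 13.7% apart and higher. Most of these microRNA genes lay in the lower range of signal, with a median level of 4.12. Only 92 of the 483 had a group mean above 5.95, the median level of all genes, against 40 of the 47 Snord genes. At an adjusted p under 0.05 in limma, Snora41 of the box H/ACA RNAs and Rnu12 of the spliceosomal RNAs were higher. So were Rpph1 and Rprl2 of the other small RNAs (background 0.0361% of all genes). No Cajal body RNA or microRNA gene passed. The difference between these classes was not tested.

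**Figure D4:**
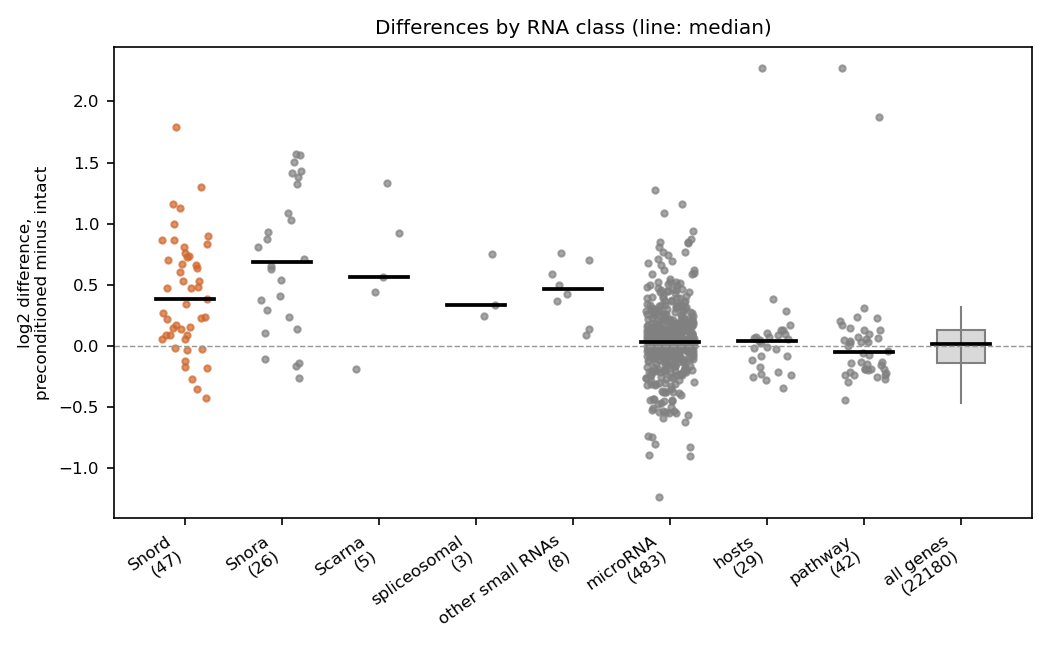
Log2 difference, preconditioned minus intact, by RNA class (points, genes, with their number in parentheses; black lines, medians; box and whisker for all genes, quartiles and the range from the 5th to the 95th percentile). The median is 0.39 for Snord genes, 0.68 for box H/ACA RNAs, 0.04 for microRNA genes, 0.04 for enclosing genes and 0.01 for all genes.

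The genes whose values followed Snord118 most closely over the 6 arrays were Vsx1, Rpph1, Nhsl1, Wfdc3 and Plekhg5, with Pearson's r between 0.994 and 0.998. These values describe 6 arrays in 2 groups, so any gene with well separated groups and little spread comes out alike. Of these 5, Rpph1, the RNA of ribonuclease P, rose from 12.30 ± 0.09 to 13.06 ± 0.05 (SD, n = 3; difference 0.76, SE 0.09, limma adjusted p = 0.0399). The other 4 had differences between 0.23 and 0.49 and did not pass.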

How the data were processed

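The deposited values are log2 values of 41345 probe sets on 6 arrays, made with RMA, per the submitters' processing notes, which also name limma. No tool version, filter or genome build was given in the sources used here. A probe annotation table listed 25335 probe sets, 23521 with 1 symbol. Per gene the probe set with the highest mean was used, which gave 22180 genes.

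Each gene was fitted with limma 3.58.1 in R 4.3.3 (lmFit and eBayes, no covariate, no filter), preconditioned minus intact, with Benjamini-Hochberg adjustment over all genes and a threshold of 0.05. Groups are called apart where every value of one lies beyond every value of the other. Hosts are genes whose span in the RefSeq table (GRCm38.p6) holds a Snord gene. That table gives no strand, so the planned strand condition was not applied. Named genes were the 4 markers Snord118, Snord65, Snord53 and Snord17, genes past the threshold, the 12 largest and 8 smallest differences with a group mean above the median level, the 5 highest means and RNAs of ribosomal RNA processing. Other names, such as those that lie outside these groups or share a host, were chosen after their values were seen. Members and lists were chosen with earlier results of these data known. Alternatives were 3 rescalings of the arrays, a level filter, another variance prior, array weights, a replicate block, other uses of probe sets, a threshold of 0.1 and each mouse left out in turn. Figures used python 3.11.15 and matplotlib 3.10.9.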

Additional observations from a re-analysis of the deposited data

How the results depend on the processing

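Each result was recomputed in 16 other settings. The median difference of Snord genes (0.29 to 0.47) and the difference of Snord118 (1.72 to 1.88) kept their direction in all 16. The count apart and higher cannot fall when a mouse is left out and does not depend on the prior, weights, block or threshold. It was 28 with cyclic loess and 28 with a further quantile normalization, 25 with median centring, and 20 of 39 Snord genes above the median level. The count of Snord genes called higher was 7 among genes above the median level (76 of all genes called there, in either direction), 5 with an intensity trend and robust prior (55), 18 with array weights (1125), 1 with all probe sets (12) and 15 at an adjusted p under 0.1 (642). It lay between 1 and 17 with 1 mouse left out, where the count called lower lay between 0 and 2 and the count apart and lower between 0 and 4. The labels number the mice within each group and name no pairing. Deviations of same-numbered mice correlated at -0.06, -0.31 and -0.07 over genes, and those of different-numbered mice at -0.16 to 0.24. With 3 mice per group the deviations of a gene sum to 0, so these correlations cannot decide whether mice were handled in pairs. With the replicate block, 1 Snord gene was called higher (4 of all genes called) and Snord65 at 0.86 was not (limma adjusted p = 0.180). With all probe sets Snord65 at 0.86 was not called either (0.0668), and with 1 mouse left out its difference lay between 0.79 and 0.90. Genes of the box C/D pathway called higher numbered 2 among genes above the median level, 2 with array weights, 2 at an adjusted p under 0.1 and 0 to 2 with 1 mouse left out, where those called lower numbered 0 to 1. At an adjusted p under 0.1 and without intact replicate 1, the 2 called higher were Rnu3a, itself a box C/D RNA, and Nop56, whose difference depended on the probe set. The causes were not tested. Over all genes the count called was 21, and between 2 and 1228 in the other settings, the highest without intact replicate 1. The median of all genes lay between -0.09 and 0.03 in every setting. The number of arrays limits the precision, and 7 Snord genes had no group mean above the median level.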

Other observations

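A further 33 probe sets carry a Snord symbol together with another gene's and were not counted above, since their signal cannot be given to either gene. Of these, 16 carry Snord116 symbols of the imprinted Prader-Willi cluster, known for expression in neurons. They hold the same value on every array, 4.01, 3.93 and 4.27 in intact and 4.37, 5.01 and 4.33 in preconditioned mice, which lies in the lower range of the array. Of the neuronal markers, Snap25 was at 4.56 to 4.74, Syt1 at 5.56 to 5.96 and Rbfox3 at 6.26 to 6.63 on the 6 arrays. Among the other 17, the probe set of Snord67 and Ckap5 was at 7.118, 6.512 and 6.251 in intact and 7.683, 8.265 and 8.003 in preconditioned mice (difference 1.36, SE 0.25). That of Snord15b and Rps3 was at 11.62, 11.51 and 11.23 in intact and 12.11, 12.07 and 12.18 in preconditioned mice (difference 0.66, SE 0.12). The probe set of Snord14e and Hspa8 stood at 0.40 and that of Snord57 and Nop56 at -0.36, each with groups apart. That of Snord14a and Rps13 stood at -0.30, with overlapping groups. The 3 probe sets of Rpl13a with Snord33, Snord34 or Snord32a lay between -0.01 and 0.06, with overlapping groups.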
